A study of Mus musculus with 8 samples.

Results

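The pyruvate dehydrogenase complex (PDC), the enzyme that turns pyruvate into acetyl-CoA in the mitochondrion, was followed at the transcript level together with the kinases that switch it off and the phosphatases that switch it on again. The 10 genes were taken by their symbols from the 22520 rows of the expression table: the kinase genes *Pdk1*, *Pdk2*, *Pdk3* and *Pdk4*, the phosphatase genes *Pdp1* and *Pdp2*, and the subunit genes *Pdha1*, *Pdhb*, *Dlat* and *Pdhx*. Splenic mouse CD8+ T cells, purified by magnetic negative selection, were stimulated without pause through CD3 and CD28 in the presence of IL-2 for 6 days. From day 3 the medium held 40 µM diisopropylamine dichloroacetate (DADA), a dichloroacetate salt used as an inhibitor of the PDC kinases, or its solvent DMSO. Poly(A) RNA of 4 samples per group was sequenced on day 6. The study worked with male C57BL/6J mice 6 to 8 weeks old, and its methods do not name the strain again for these libraries. All 8 samples shared the stimulation and the IL-2, and no unstimulated or untreated cells were among them. The groups are described as 4 biological replicates each, without saying whether a replicate is a mouse or a culture, so the p-values measure the spread between these samples, which may in part be technical. The question put to these genes was whether cells kept with a kinase inhibitor differ in the transcripts of the kinases, of their opponents and of the enzyme itself.

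PDC joins several enzymes in a single large particle. The E1 enzyme, built from the alpha subunit (*Pdha1*) and the beta subunit (*Pdhb*), removes carbon dioxide from pyruvate, the E2 enzyme (*Dlat*) passes the acetyl group to coenzyme A on a lipoyl arm, and the E3-binding protein (*Pdhx*) anchors the E3 enzyme (*Dld*), which reoxidizes that arm. Pyruvate dehydrogenase kinases phosphorylate serines of the E1 alpha subunit and stop the enzyme, and pyruvate dehydrogenase phosphatases remove these phosphates. *Pdk1* and *Pdk3* are known as genes that hypoxia-inducible factor (HIF) turns on, *Pdk4* as a gene of fasting under FOXO and PPAR factors, and T cells that divide on glucose are known to keep part of their pyruvate out of PDC and release it as lactate.

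Values are FPKM as deposited, in which the fragments of a gene are divided by the length of its transcript and by the depth of the library. Differences were fitted with limma on log2(FPKM + 1), over 10666 genes (1 FPKM or more in no fewer than 4 libraries), and a gene was called where its Benjamini-Hochberg adjusted p, taken over all these genes, was under 0.05. Every fold change below is on this scale, as DADA minus DMSO, and it understates the change of genes with low FPKM. Single genes were also given an exact permutation p (two-sided, 70 ways to assign the 8 libraries), which cannot go below 0.0286. The DMSO and DADA libraries differed broadly, with Pearson correlations of 0.993 to 0.995 within groups and of 0.958 to 0.961 between them, so that 66.2% of the genes tested were called, 30.9% higher and 35.3% lower. The median log2 fold change over all genes was -0.02. Depth is not given with FPKM values. From the steps between the lowest values it was estimated at 13750000 to 16510000 fragments with DMSO and 14890000 to 18720000 with DADA, as an approximate figure. The CD8 T cell markers *Cd8a*, *Cd8b1*, *Cd3d*, *Cd3e* and *Cd3g* were present in every library and summed to 674 to 680 FPKM with DMSO and 776 to 805 FPKM with DADA.

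The letters ahead of 4 of the start sites are printed because their genes make up the contrasts described below: *Pdk1* against *Pdk3*, the abundant kinases, and *Pdha1* against *Pdhb*, the subunits of E1. Each run gives the 250 bases before the RefSeq transcript start (assembly GRCm38.p6), 5′ to 3′ along the strand of the gene. Capitals mark the letters ACGTG and GCGTG or their reverse complements CACGT and CACGC, the core that HIF recognizes. The windows are chr2:71872974-71873223 on the plus strand for *Pdk1*, chrX:93832151-93832400 on the minus strand for *Pdk3*, chrX:160138431-160138680 on the minus strand for *Pdha1*, and chr14:8172993-8173242 on the minus strand for *Pdhb*.
Pdk1: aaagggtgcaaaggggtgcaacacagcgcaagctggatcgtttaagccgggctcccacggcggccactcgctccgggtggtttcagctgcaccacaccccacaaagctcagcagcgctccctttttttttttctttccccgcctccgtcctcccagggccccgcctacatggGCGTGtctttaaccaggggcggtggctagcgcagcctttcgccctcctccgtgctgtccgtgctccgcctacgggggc
Pdk3: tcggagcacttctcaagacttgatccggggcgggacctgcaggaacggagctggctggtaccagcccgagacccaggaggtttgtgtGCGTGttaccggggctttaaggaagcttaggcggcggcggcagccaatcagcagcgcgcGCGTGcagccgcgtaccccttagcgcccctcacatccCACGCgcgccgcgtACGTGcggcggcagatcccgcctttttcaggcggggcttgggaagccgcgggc
Pdha1: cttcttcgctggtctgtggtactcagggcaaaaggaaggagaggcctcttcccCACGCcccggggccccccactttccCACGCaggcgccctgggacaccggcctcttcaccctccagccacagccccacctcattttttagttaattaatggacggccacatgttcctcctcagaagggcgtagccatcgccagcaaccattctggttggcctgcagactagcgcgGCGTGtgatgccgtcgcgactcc
Pdhb: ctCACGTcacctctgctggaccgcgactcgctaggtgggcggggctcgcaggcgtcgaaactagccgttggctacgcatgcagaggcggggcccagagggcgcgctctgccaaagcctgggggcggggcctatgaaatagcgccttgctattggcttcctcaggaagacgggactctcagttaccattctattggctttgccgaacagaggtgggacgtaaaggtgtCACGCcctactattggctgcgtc

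The *Pdk1* window held 1 such core, the *Pdk3* window 4, the *Pdha1* window 3 and the *Pdhb* window 2. A second annotated start of *Pdk1* had none in its 250 bases. Among 32851 promoter windows of this length, 16.6% held ACGTG, 28.2% held GCGTG and 38.6% held either, on either strand. Windows were at hand for 9 of the 10 genes, 11 windows in all. *Dlat* had no core, *Pdhx* had 2 and *Pdk4* had 1. *Pdp2* and 1 window of *Pdk2* each had 2 that overlap on opposite strands, and the other *Pdk2* window had none. A match is a run of letters, and the files hold no measurement of binding.

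Of the 10 genes, 8 passed the filter on low values. Among these, 2 were called higher with DADA (*Pdha1* and *Pdp2*), 5 were called lower (*Pdk1*, *Pdp1*, *Pdhb*, *Dlat* and *Pdhx*) and *Pdk3* was not called (limma). With 66.2% of all genes called, the number of calls does not set these genes apart. Their median log2 fold change was -0.24, against -0.02 over all genes tested. The libraries of the groups did not overlap for 7 of these 8, with DADA above DMSO in 2 and below it in 5, where 60.6% of the genes tested did not overlap, 28.4% with DADA above and 32.2% with DADA below. Of the 2 genes under the filter, *Pdk2* did not overlap and *Pdk4* did. *Pdk1* alone was called with a log2 fold change of at least 1 in size, as 4.03% of the genes tested were. The median size over all called genes was 0.31, and the other called members, at 0.14 to 0.52, lay around it. In bulk RNA, a smaller share of cells that hold a transcript and less of it in each cell cannot be told apart.

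**Figure D1:**
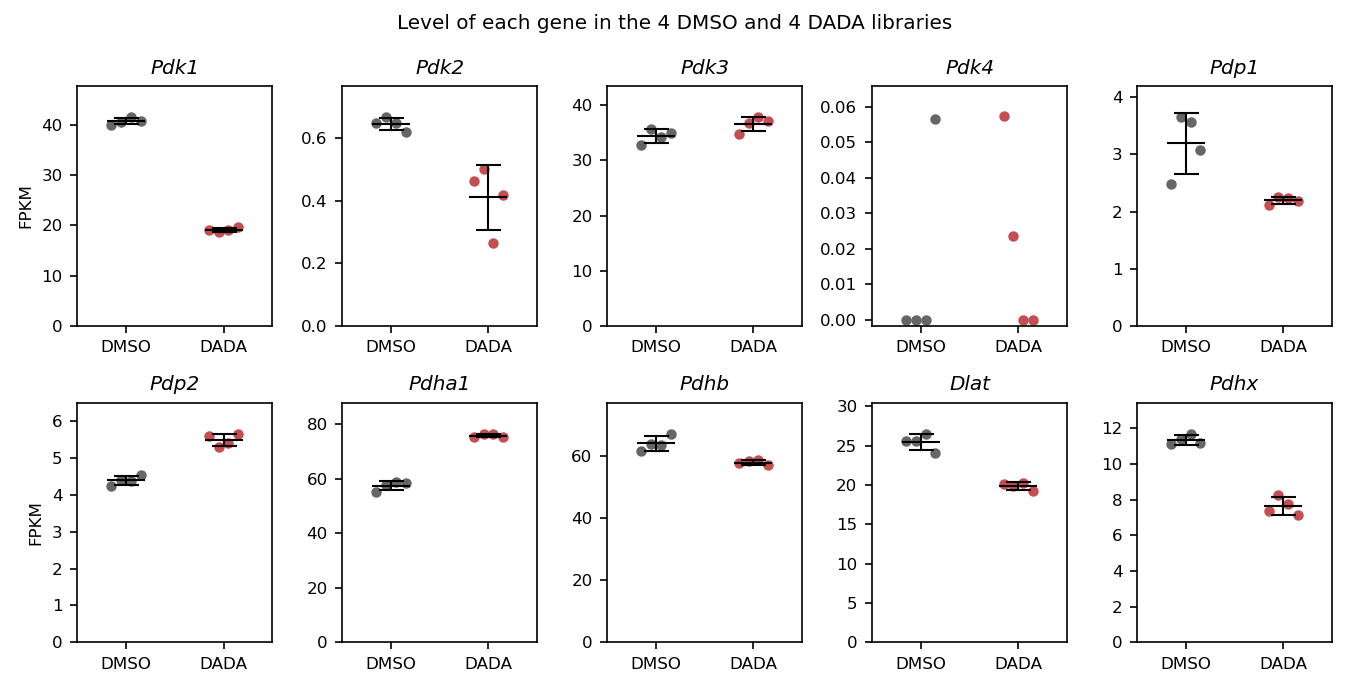
FPKM of each of the 10 genes (y axis, separate linear scale for each gene) in the 4 DMSO libraries (grey) and the 4 DADA libraries (red), with lines at the mean and bars of 1 SD, except for Pdk4, which is listed at 0 in 5 libraries. Points of the groups lie apart for all genes but Pdk3 and Pdk4, with Pdk1 showing the widest gap of the well expressed genes, from about 41 to 19 FPKM.

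*Pdk1* (ENSMUSG00000006494), the kinase most often tied to the hypoxic response, was the member with the largest fall. Its 4 DMSO libraries were at 40, 40.6, 41.5 and 40.8 FPKM and its 4 DADA libraries at 19, 18.6, 19 and 19.6 FPKM. All DADA libraries lay far below all DMSO libraries, and within either group the libraries were nearly level. The mean went from 40.7 ± 0.614 to 19 ± 0.381 FPKM (SD, n = 4), a decrease of 53.2% in FPKM. The log2 fold change was -1.06 (SE 0.0258, 95% confidence interval -1.11 to -1.0, limma adjusted p = 3.53e-10, exact permutation p = 0.0286). Among the 3768 genes called lower it was the 43rd largest fall.

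*Pdk3* (ENSMUSG00000035232), known as the isoform least sensitive to dichloroacetate, was the other abundant kinase, and it did not follow *Pdk1*. It was at 32.7, 35.6, 34.2 and 35 FPKM with DMSO and at 34.7, 36.7, 37.8 and 37.1 FPKM with DADA. The groups overlapped, since the lowest DADA library lay below 2 of the DMSO libraries. The group means were 34.4 ± 1.25 and 36.6 ± 1.32 FPKM (SD, n = 4), DMSO first. The log2 fold change of 0.09 (SE 0.0353, 95% confidence interval 0.01 to 0.17) missed the threshold (limma adjusted p = 0.0511, exact permutation p = 0.0857). It passed under 7 of 16 alternatives, with adjusted p values from 0.0143 to 0.129 over all of them (limma), among them the replicate block (0.0261) and the fits without DMSO library 2 (0.0375) or DADA library 1 (0.0182). A fall of the size seen in *Pdk1* lay far outside its interval.

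*Pdk2* (ENSMUSG00000038967), widely expressed in other tissues and known as an isoform that dichloroacetate inhibits strongly, was scarce here. It was at 0.65, 0.667, 0.65 and 0.62 FPKM with DMSO and at 0.463, 0.501, 0.264 and 0.417 FPKM with DADA, so it never reached the filter. By the estimated depth these values stand for 20.1 to 24.7 fragments with DMSO and 8.82 to 20.8 with DADA. All DADA libraries were below all DMSO libraries (exact permutation p = 0.0286). In the fit without the filter, in which 48.7% of 16167 genes were called and 23.9% were called lower, its log2 fold change was -0.23 (SE 0.0517, limma adjusted p = 0.00677). With a pseudocount of 0.1 in place of 1 the change was -0.57, so its size on this scale is set by the pseudocount.

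*Pdk4* (ENSMUSG00000019577), the starvation-responsive kinase of muscle and liver, was at the limit of detection. It was listed at 0 in DMSO libraries 1, 2 and 3 and at 0.0566 FPKM in DMSO library 4. With DADA it was at 0.0573 and 0.0236 FPKM in libraries 1 and 2 and listed at 0 in libraries 3 and 4. The values above 0 correspond to an estimated 1.52 to 3.57 fragments, and a level of 3 fragments would read as 0.046 to 0.0626 FPKM. No difference was detectable at this depth (exact permutation p = 0.714).

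The phosphatase transcripts were much scarcer than those of the kinases, and they moved apart from each other. *Pdp1* (ENSMUSG00000049225), which encodes the calcium-stimulated catalytic subunit, was at 2.49, 3.65, 3.56 and 3.08 FPKM with DMSO and at 2.11, 2.25, 2.23 and 2.19 FPKM with DADA. The DMSO libraries were spread widely, the lowest of them just above the DADA libraries, which were tight. The mean fell by 31.3% in FPKM, from 3.2 ± 0.532 to 2.2 ± 0.0616 FPKM (SD, n = 4), with a log2 fold change of -0.38 (SE 0.0871, 95% confidence interval -0.58 to -0.19, limma adjusted p = 0.00299, exact permutation p = 0.0286).

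*Pdp2* (ENSMUSG00000048371), the catalytic subunit that does not depend on calcium, rose. Its libraries were at 4.24, 4.41, 4.36 and 4.54 FPKM with DMSO and at 5.6, 5.3, 5.4 and 5.65 FPKM with DADA, with no overlap. The mean went from 4.39 ± 0.121 to 5.49 ± 0.167 FPKM (SD, n = 4), an increase of 25.1% in FPKM, and the log2 fold change was 0.27 (SE 0.0417, 95% confidence interval 0.17 to 0.36, limma adjusted p = 2.63e-04, exact permutation p = 0.0286).

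The subunits of E1 went in opposite directions. *Pdha1* (ENSMUSG00000031299), which carries the serines that the kinases phosphorylate, was at 55, 57.9, 58.8 and 58.4 FPKM with DMSO and at 75.2, 76.4, 76.5 and 75.3 FPKM with DADA. Every DADA library was far above every DMSO library. The mean rose by 31.8% in FPKM, from 57.5 ± 1.71 to 75.8 ± 0.724 FPKM (SD, n = 4), with a log2 fold change of 0.39 (SE 0.0256, 95% confidence interval 0.34 to 0.45, limma adjusted p = 4.50e-07, exact permutation p = 0.0286). Exons of *Map3k15* on the opposite strand cover 603 of the 3734 exonic bases of *Pdha1* (16.1%, GENCODE M21), and whether the authors' counting used strand is not given in the sources used here. *Map3k15* itself went from 4.11 ± 0.269 to 3.33 ± 0.104 FPKM (log2 fold change -0.24, limma adjusted p = 0.00238). Without strand, reads of either gene could be counted for the other, and the part of this overlap in both values was not tested.

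*Pdhb* (ENSMUSG00000021748) was the most abundant of the 10 genes with DMSO, at 61.6, 63.8, 63.7 and 67.2 FPKM, and was at 57.8, 58.3, 58.6 and 57.1 FPKM with DADA. The groups did not overlap, but the gap between the lowest DMSO and the highest DADA library was narrow. The mean fell by 9.54% in FPKM, from 64.1 ± 2.3 to 58 ± 0.653 FPKM (SD, n = 4), the smallest change among the called members, with a log2 fold change of -0.14 (SE 0.028, 95% confidence interval -0.20 to -0.08, limma adjusted p = 0.0013, exact permutation p = 0.0286). A processed pseudogene, *Gm6123*, aligns to 1078 of the 1513 bases of the *Pdhb* transcript at up to 97% identity and is not among the rows of the table, so the level of *Pdhb* is uncertain to the extent that reads were split between them.

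The core and anchor of the particle were both lower with DADA. *Dlat* (ENSMUSG00000000168), the E2 transacetylase, was at 25.6, 25.6, 26.5 and 24.1 FPKM with DMSO and at 20.1, 19.9, 20.3 and 19.2 FPKM with DADA. The groups were clearly apart, and the mean fell by 21.9% in FPKM, from 25.5 ± 1.01 to 19.9 ± 0.467 FPKM (SD, n = 4). Its log2 fold change was -0.34 (SE 0.0344, 95% confidence interval -0.42 to -0.26, limma adjusted p = 1.19e-05, exact permutation p = 0.0286). *Pdhx* (ENSMUSG00000010914), the E3-binding protein, was at 11.1, 11.4, 11.7 and 11.2 FPKM with DMSO and at 7.36, 8.29, 7.79 and 7.13 FPKM with DADA. Here too all DADA libraries were below all DMSO libraries, and after *Pdk1* this was the largest change of the members tested. The mean fell by 32.7% in FPKM, from 11.4 ± 0.289 to 7.64 ± 0.512 FPKM (SD, n = 4), with a log2 fold change of -0.52 (SE 0.0471, 95% confidence interval -0.62 to -0.41, limma adjusted p = 5.37e-06, exact permutation p = 0.0286).

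**Figure D2:**
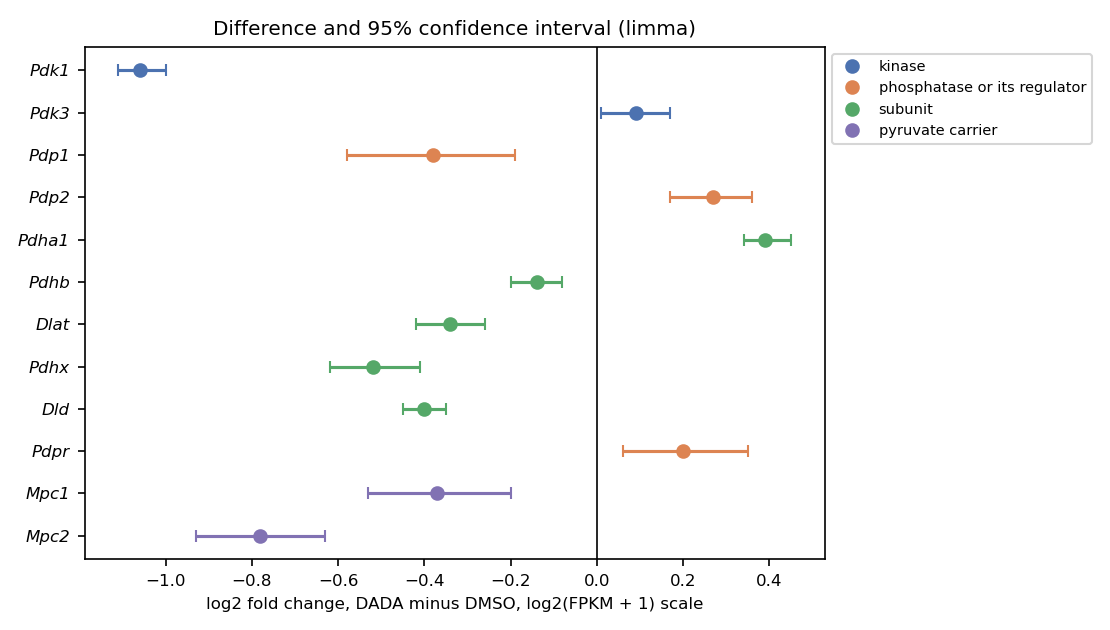
Log2 fold change, DADA minus DMSO, on the log2(FPKM + 1) scale (x axis) with its 95% confidence interval from limma for the 8 members that passed the filter and for the E3 subunit, the phosphatase regulator and the mitochondrial pyruvate carrier, coloured by role (n = 4 per group). The interval of Pdk1 (-1.11 to -1.0) shares no values with that of Pdk3 (0.01 to 0.17), and Pdha1 (0.34 to 0.45) and Pdp2 (0.17 to 0.36) lie on the other side of 0 from their partners Pdhb and Pdp1.

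FPKM values are scaled to transcript length, so levels can be ordered between genes. The places of *Pdhb* and *Pdha1* carry the limits given above, the pseudogene of *Pdhb* and the exons that overlap *Pdha1*. With DMSO the order was *Pdhb*, *Pdha1*, *Pdk1*, *Pdk3*, *Dlat*, *Pdhx*, *Pdp2*, *Pdp1*, *Pdk2* and *Pdk4*, and the ranges of all neighbours in it were apart. With DADA *Pdha1* stood above *Pdhb* and *Pdk3* above *Pdk1*, which had come down to the level of *Dlat*. The ranges of *Dlat* (19.2 to 20.3 FPKM) and *Pdk1* (18.6 to 19.6 FPKM) overlapped, and the other neighbours were apart.

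The balance of kinase and phosphatase transcripts was taken as the ratio of their summed FPKM in each library, a description without a test that does not depend on how a library was scaled. The summed kinases were at 73.3, 76.9, 76.3 and 76.4 FPKM with DMSO and at 54.2, 55.9, 57 and 57.1 FPKM with DADA. The summed phosphatases were at 6.74, 8.06, 7.93 and 7.62 FPKM with DMSO and at 7.72, 7.55, 7.63 and 7.84 FPKM with DADA. The kinase sum was thus lower in all DADA libraries, while the phosphatase sum overlapped, with the fall of *Pdp1* and the rise of *Pdp2* nearly cancelling at 7.58 ± 0.595 and 7.68 ± 0.124 FPKM (SD, n = 4). The ratio was 10.9, 9.54, 9.63 and 10 with DMSO and 7.03, 7.4, 7.48 and 7.29 with DADA. Its mean went from 10 ± 0.613 to 7.3 ± 0.198 (SD, n = 4), a difference of -0.46 between the mean log2 ratios, and no DADA library reached a DMSO library. Kinase transcripts outnumbered phosphatase transcripts in all 8 libraries. Averaging log2(FPKM + 1) within each class in place of summing, which weights the scarce kinases like the abundant ones, gave a difference of -0.24.

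The composition of each class shifted more than its total. *Pdk1* made up 53.7 ± 0.79% of the kinase FPKM with DMSO and 34 ± 0.811% with DADA, and *Pdk3* took its place as the leading kinase. The *Pdk1* to *Pdk3* ratio lay between 1.14 and 1.22 with DMSO and between 0.503 and 0.547 with DADA, a difference of -1.19 in mean log2 ratio. *Pdp1* made up 41.9 ± 3.95% of the phosphatase FPKM with DMSO and 28.6 ± 1.14% with DADA. Taken pair by pair, the balance depended on which genes were set against each other: the mean log2 ratio of *Pdk1* to *Pdp2* differed by -1.42, that of *Pdk1* to *Pdp1* by -0.57, and that of *Pdk3* to *Pdp2* by -0.23, but that of *Pdk3* to *Pdp1* by 0.62. The ratio of *Pdk3* to *Pdp1*, the pair that turned the other way, rose from 11 ± 1.64 to 16.7 ± 0.334 (SD, n = 4).

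**Figure D3:**
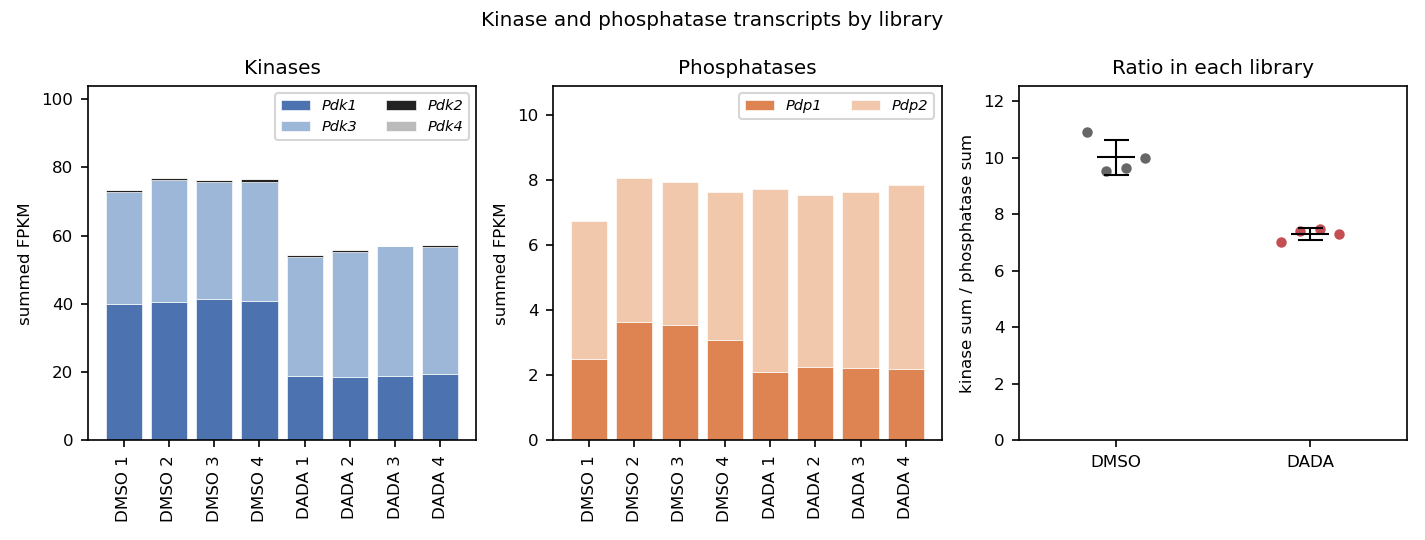
Left and middle, FPKM of the 4 kinase genes and of the 2 phosphatase genes stacked for each library (y axes in summed FPKM, on separate scales from 0), and right, the ratio of the kinase sum to the phosphatase sum in each library with its mean and 1 SD. The kinase stacks are shorter with DADA because the Pdk1 segment is shorter, the phosphatase stacks keep their height between 6.74 and 8.06 FPKM, and the ratio lies between 9.54 and 10.9 with DMSO and between 7.03 and 7.48 with DADA.

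Set against the mean of the E1 subunits, the kinases were also lower. The kinase sum divided by the mean of *Pdha1* and *Pdhb* went from 1.25 ± 0.0205 to 0.838 ± 0.0202 (SD, n = 4). The phosphatase sum divided by the same mean overlapped between the groups. That mean takes in *Pdhb*, which fell and does not carry the phosphorylated serines. Ratios of either sum to *Pdha1* alone were not taken library by library, but the values give their direction. In every DADA library the kinase sum was lower and *Pdha1* higher than in any DMSO library. The mean of *Pdha1* rose from 57.5 to 75.8 FPKM while the phosphatase sum stayed at 7.58 and 7.68 FPKM. Set against the mean of *Pdha1* alone, the phosphatases were therefore lower with DADA, unlike the overlapping ratio to the E1 mean. Within E1, the ratio of *Pdha1* to *Pdhb* went from 0.898 ± 0.023 to 1.31 ± 0.00756. It was under 1 in every DMSO library and over 1 in every DADA library, but both levels carry the limits given above, the pseudogene of *Pdhb* and the exons that overlap *Pdha1*, so the ratio does not fix which transcript was in excess. The ratio of *Dlat* to *Pdhx* went from 2.24 ± 0.0613 to 2.61 ± 0.147, and that of *Pdha1* to *Dlat* from 2.26 to 3.81. The 4 subunit transcripts therefore did not keep fixed proportions across the groups, with *Pdha1* gaining on the other 3.

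The parts of PDC outside the 10 genes fell on both sides as well. *Dld*, the E3 dehydrogenase that PDC shares with its sister enzymes, fell from 81.8 ± 1.51 to 61.6 ± 1.02 FPKM (log2 fold change -0.40, limma adjusted p = 1.71e-07). *Pdpr*, the regulatory subunit of the phosphatase, went from 5.36 ± 0.545 to 6.31 ± 0.323 FPKM (log2 fold change 0.20, limma adjusted p = 0.0194), a call that was lost without DADA library 1 (adjusted p = 0.0522) and after quantile normalization (0.0802). The testis form of E1 alpha, *Pdha2*, was listed at 0 in all 8 libraries. The carrier that brings pyruvate to the complex fell in both of its subunits, *Mpc1* from 36.5 to 28.2 FPKM (log2 fold change -0.37, limma adjusted p = 0.0014) and *Mpc2* from 27.9 to 15.9 FPKM (log2 fold change -0.78, limma adjusted p = 3.56e-06).

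The lipoyl arm of *Dlat* and the thiamine cofactor of E1 have to be supplied by other genes. Of 9 such genes, 7 were called lower, none higher, and 2 were not called, with a median of -0.28 (limma), where 35.3% of all genes tested were called lower. *Nfu1*, an iron-sulfur carrier that serves lipoate synthesis, fell from 92.7 to 59.9 FPKM (log2 fold change -0.62, limma adjusted p = 8.43e-08), and *Lias*, the lipoate synthase, fell from 28.4 to 21.3 FPKM (-0.40, limma adjusted p = 2.90e-05).

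The sister 2-oxoacid dehydrogenases use the same plan of E1, E2 and E3. Of 8 of their genes, 7 passed the filter, 2 were called higher and 5 lower, with a median of -0.24 (limma), against 30.9% and 35.3% of all genes tested. *Ogdh*, the E1 of the tricarboxylic acid cycle, fell from 53.2 to 39.6 FPKM (log2 fold change -0.42, limma adjusted p = 5.58e-07). In the branched-chain enzyme the E1 subunits parted as they did in PDC, with the alpha subunit *Bckdha* rising from 5.89 to 10.8 FPKM (0.77, limma adjusted p = 2.63e-06) and the beta subunit *Bckdhb* falling from 4.09 to 2.96 FPKM (-0.37, limma adjusted p = 0.00273). Its kinase *Bckdk* and its phosphatase *Ppm1k* had small changes of -0.15 (limma adjusted p = 0.0232) and 0.13 (0.0309). These calls were lost under 6 and 7 of the alternatives, among them the replicate block (adjusted p = 0.0502 and 0.0507). Each was also lost without any of several single libraries: *Bckdk* without DMSO 1 or 4 or DADA 1 or 3 (0.0539 to 0.0647), and *Ppm1k* without DMSO 1 or 2 or DADA 1, 3 or 4 (0.0541 to 0.0895).

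Pyruvate and acetyl-CoA have other routes, and of 10 genes of these routes 3 were called higher, 5 lower and 2 not, with a median of -0.04 (limma), beside 30.9% higher and 35.3% lower over all genes tested. *Ldha*, the lactate dehydrogenase subunit that favours lactate, rose from 1130 to 1950 FPKM (log2 fold change 0.80, limma adjusted p = 7.77e-08), and *Ldhb*, the subunit that favours pyruvate, fell from 10.9 to 7.11 FPKM (-0.56, limma adjusted p = 1.37e-04). *Pcx*, which carboxylates pyruvate to oxaloacetate, rose from 2.51 to 5.89 FPKM (0.97, limma adjusted p = 5.19e-08), and *Gpt2*, the mitochondrial alanine transaminase, fell from 33 to 25.7 FPKM (-0.35, limma adjusted p = 4.73e-07).

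*Pdk1* is commonly listed among the genes that HIF induces, and 26 other genes of that kind were set beside it. Of the 25 that passed the filter, 23 were called higher and 2 lower, with a median of 1.47 (limma), where 30.9% of all genes tested were called higher. This list was chosen with earlier results of these data known. *Ldha* is counted in it and among the other routes of pyruvate. The largest rises were those of *Hilpda*, a lipid droplet protein, from 8.4 to 114 FPKM (log2 fold change 3.62, limma adjusted p = 1.05e-10) and of *P4ha2*, a collagen prolyl hydroxylase, from 1.61 to 26.4 FPKM (3.39, limma adjusted p = 5.12e-12). The 2 that fell with *Pdk1* were *Slc2a1*, the glucose transporter GLUT1, from 116 to 29.1 FPKM (-1.96, limma adjusted p = 4.75e-11), and *Hk2*, the hexokinase that traps glucose, from 77 to 35.8 FPKM (-1.08, limma adjusted p = 1.07e-10). *Pdk1* at -1.06 lay beside *Hk2*, and *Pdk3* at 0.09 lay between these genes and the remaining 23.

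**Figure D4:**
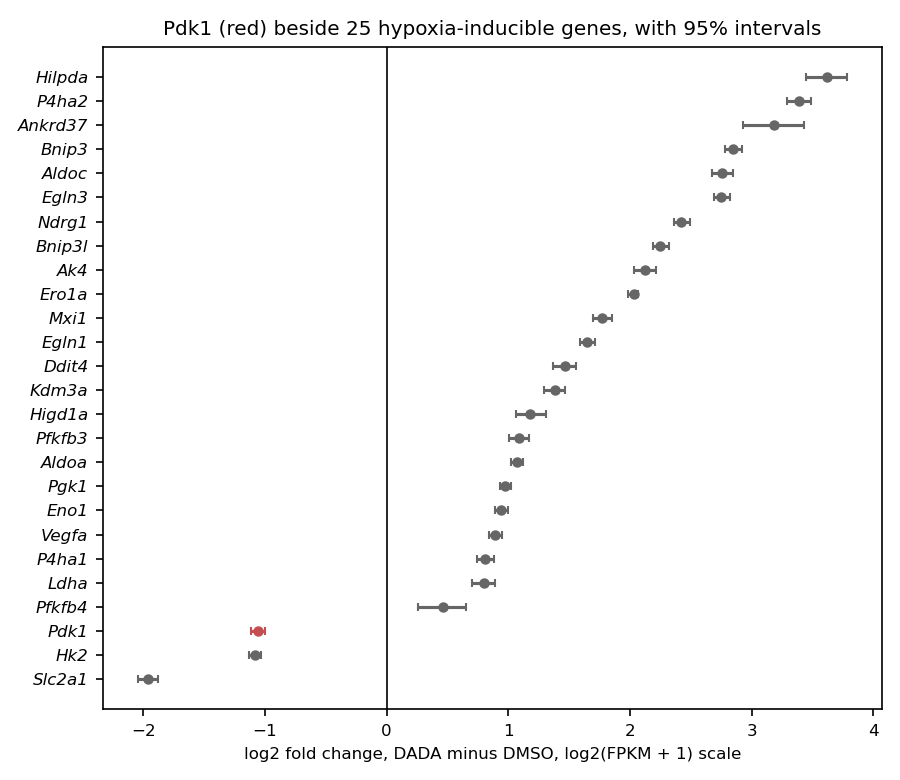
Log2 fold change, DADA minus DMSO, on the log2(FPKM + 1) scale (x axis) with 95% confidence intervals from limma for Pdk1 (red) and 25 hypoxia-inducible genes (grey), in order of size (n = 4 per group). Pdk1 at -1.06 stands with Hk2 at -1.08 and Slc2a1 at -1.96 left of 0, and the other 23 genes stand right of 0, up to 3.62 for Hilpda.

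Genes of factors and receptors known to act on PDK genes were also counted. Of 16, 12 passed the filter, of which 9 were called higher, none lower and 3 not, with a median of 0.35 (limma), where 66.2% of all genes tested were called and 30.9% were higher. *Foxo1*, a known activator of *Pdk4*, rose from 8.19 to 13.1 FPKM (log2 fold change 0.62, limma adjusted p = 1.30e-07), and *Pparg* rose from 3.78 to 5.91 FPKM (0.53, limma adjusted p = 7.09e-06), while *Pdk4* stayed at the limit of detection. *Ppargc1a* was listed at 0 in all 8 libraries.

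Over the 8 libraries, the genes averaging 5 FPKM or more whose log2(FPKM + 1) followed *Pdk1* most closely were *Tma16* (Pearson r = 0.9991), *Nup188* (r = 0.9991) and *Ctla4* (r = 0.999). These values are a description over 8 points in 2 groups, and 364 of 8187 genes had r over 0.99, so the likeness is mostly that of the group difference.

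Summed markers of other cells moved with the groups in 2 of 5 lists, and their part in the results was not tested. The 6 myeloid markers summed to 3.51 to 3.99 FPKM with DMSO and 5.15 to 5.72 FPKM with DADA, nearly all of it *Cd68*, with *Csf1r* and *Adgre1* at 0 in all libraries. The 3 NK cell markers summed to 13.3 to 14.2 FPKM with DMSO and 10.1 to 11.2 FPKM with DADA, nearly all of it *Eomes*, which CD8+ T cells also express. The CD4, B cell and erythroid lists overlapped between the groups and summed to at most 0.718, 3.54 and 0.369 FPKM. Single markers at low values did not all follow their sums. In the NK list *Klrb1c* rose from 0.018 to 0.185 FPKM and *Ncr1* overlapped. In the CD4 list *Foxp3* rose from 0.0693 to 0.214 FPKM and *Cd40lg* fell from 0.222 to 0.0767 FPKM, while *Cd4* overlapped. The groups did not overlap for *Klrb1c*, *Foxp3* and *Cd40lg*.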

How the data were processed

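The authors sequenced poly(A) RNA of splenic CD8+ T cells as paired reads of 150 bases and deposited FPKM values, 1 per gene and library, which were used as they are. The submitters' processing notes name HISAT2 2.0.5, StringTie 1.3.3, SAMtools 0.1.18 and Picard 1.41, and the builds GRCm39 and GRCh38, without saying what each was used for. Positions are therefore given only for RefSeq promoter windows of assembly GRCm38.p6, which is not among the builds named in the notes. The labels and the study's methods name different library kits, so strandedness is unknown.

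Libraries were grouped by their titles. log2(FPKM + 1) was fitted with limma 3.58.1 in R 4.3.3 (lmFit with a DADA term, eBayes with its trend option, Benjamini-Hochberg adjustment, call under 0.05) over genes with at least 1 FPKM in 4 libraries, and single genes were tested by exact permutation. The study states a two-tailed t-test for pairs of groups in general, and limma was used in its place because 10666 genes were tested from 4 libraries a group. In a test on simulated data for DADA against DMSO, with 10666 genes and 200 changed, the fit recovered 165 (82.5%) of them, with 8 false among 173 calls. The simulation used independent noise and changed far fewer genes than the 66.2% called in the data. Its rates therefore need not hold for the data, nor for small changes taken alone.

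The members and lists were chosen with earlier results of these data known. The rule for named genes takes all 10 members, *Dld*, *Pdpr*, *Mpc1*, *Mpc2*, *Bckdk* and *Ppm1k*, the 2 called genes with the largest rise and fall of each other list, and the 3 genes most correlated with *Pdk1*. *Map3k15*, *Gm6123*, *Pdha2* and *Ppargc1a*, and single markers, were named after their values were seen. Some genes of the lists are counted but not reported here one by one.

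Depth was estimated from low FPKM values of 3858 genes with a single transcript. Of the 353 to 424 low values used in each library, 39.9% to 47.3% were within 0.1 of whole fragment numbers (20% by chance at a fixed depth). The depth was chosen to fit these same values, so part of that excess is built in. No count test was run. The search range for this estimate was set after the data were seen. Near-identical copies were sought with BLAST+ 2.17.0 among GENCODE M21 transcripts. Alternatives were a pseudocount of 0.1, no filter, a mean of at least 5 FPKM, TPM, median-ratio and quantile scaling, eBayes with no trend, a replicate block, and each library left out. Figures were drawn with matplotlib 3.10.9.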

Additional observations from a re-analysis of the deposited data

Results flagged for a closer look

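A single group held a library that stood apart from the rest. For *Pdk4* with DMSO, library 4 was at 0.0566 FPKM and the other 3 libraries were listed at 0, so the gap took up the whole range of the group, a share of 1, which is past the 95% limit of Dixon's test for 4 samples. By the estimated depth this value stands for 2.88 fragments. The check was made on 28 groups, and about 1 in 20 groups of normally spread values passes the limit by chance, which is 1.4 of 28. That rate does not hold for a group with 3 libraries at 0, where any value above 0 gives a share of 1.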

How the results depend on the processing

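Of 126 alternative values for the 8 members tested, 7 changed a call, all of them for *Pdk3*, which passed the threshold with a mean of at least 5 FPKM (adjusted p = 0.0485), with TPM (0.0186), median-ratio (0.0143) and quantile scaling (0.0212), with the replicate block (0.0261), and without DMSO library 2 (0.0375) or DADA library 1 (0.0182), at log2 fold changes of 0.09 to 0.12 (limma). *Pdk1* stayed between -1.09 and -1.03, *Pdha1* between 0.37 and 0.44, and *Pdhb* between -0.16 and -0.10 over 16 alternatives each. *Pdp1* was not in the fit with a mean of at least 5 FPKM, nor was *Pdp2*. *Pdk4* changed sign to -0.01 after quantile normalization (adjusted p = 0.871) and without DADA library 1 (limma adjusted p = 0.798). Leaving out single libraries gave -0.01 to 0.03 for it, and it was never called. The kinase to phosphatase difference was -0.24 as a mean of log2(FPKM + 1). Among the lists, the other PDC parts had 0 genes higher after quantile normalization (range 0 to 1 over single libraries left out), the sister dehydrogenases 1 with a mean of at least 5 FPKM, quantile normalization or the replicate block (range 1 to 2), and the PDK regulators 1 lower without the filter or after quantile normalization (range 0 to 1). Of 332 alternative values for related genes, 15 changed a call (*Bckdk* 6, *Ppm1k* 7, *Pdpr* 2). The causes were not tested. Deviations of same-numbered libraries had correlations of 0.095, -0.120, -0.088 and 0.075, and those of differently numbered ones ran from -0.267 to 0.134. No pairing by number was seen. These correlations cannot exclude a shared mouse or culture, because what a replicate stands for was not stated. With the replicate block 3251 genes were called higher and 3744 lower, against 3296 and 3768. Depth limits *Pdk4* and, less so, *Pdk2*.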
